A study of Mus musculus with 24 samples.

Results

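ERV1 repeat types were followed through MERVL knockdown in mouse preimplantation embryos. An ERV1 type is a RepeatMasker name of class LTR/ERV1, and all its copies in the genome were counted together. The count files list 103 such types among 1035 repeat types and 56326 names of genes and repeat types, and all 103 are described here. They were chosen by class name alone. Of the types, 22 are internal regions (names ending in -int) and the rest are mostly LTRs. None was at 0 in all 12 libraries, 65 held 10 or more counts in every library and 15 held fewer than 10 counts in every library.

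ERV1 elements are the class I endogenous retroviruses, relatives of the gammaretroviruses. A complete copy has an internal region, which once coded for Gag, Pol and Env, between a pair of LTRs, the promoter and terminator of the provirus. Recombination between the LTRs leaves a solo LTR, so an LTR name covers many copies that have no internal region. In the mouse the class holds murine leukaemia virus (MuLV) copies, the VL30 elements, which code for no retroviral protein and can be packaged by MuLV, and the GLN elements, named for a glutamine tRNA primer-binding site. In embryonic cells such proviruses are held silent by TRIM28 and SETDB1, brought to the DNA by zinc-finger proteins such as ZFP809. MERVL, the target of the knockdown, is an ERVL element of class III and no member of ERV1.

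Zygotes from B6D2F1 mice, 8 weeks old when purchased, had been injected with antisense oligonucleotides (ASOs) and cultured. The control embryos received the scrambled ASO and the MERVL-KD embryos a mixture of 3 ASOs against MERVL. There were 2 libraries each of control and MERVL-KD embryos at the 2-cell, 4-cell and 8-cell stages, of 30 embryos each. The labels put 2-cell embryos at 1.5 days post coitum and the later stages at 2.5 days, and the strain tag (BDF2) differs from the protocol. The ASO sequences are shown because they define both arms. Capitals mark positions 6 to 14, the stretch without the 2′-O-methoxyethyl modification.
MERVL-ASO1: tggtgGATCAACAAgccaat
MERVL-ASO2: catttGTCTGTTTAccacga
MERVL-ASO3: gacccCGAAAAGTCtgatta
Scramble-ASO: agcgcGGGTATTGAaccagg

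Libraries summed to between 28167085 and 41482526 counts. In every group the 2 libraries differed beyond sampling noise, also over ERV1 types alone (chi-square over its degrees of freedom, 5.59 to 10.9). MERVL-int stood at 66047 and 77007 CPM (TMM-scaled counts per 1e6 counts) in control 2-cell libraries and at 1332 and 1251 in MERVL-KD libraries. It stayed lower in MERVL-KD embryos, with 20188 and 17323 CPM against 491 and 317 in 4-cell embryos and 12170.0 and 11974 against 276 and 295 in 8-cell embryos. The 4 markers of the 2-cell stage summed to 405 to 459 CPM in control and 233 to 292 in MERVL-KD 2-cell libraries, and to between 51.8 and 101 later, most of it Tdpoz4, which in control embryos stayed at 76.8 to 87.8 at all stages. The 4 markers of the 8-cell stage summed to 59.5 to 76.3 CPM in 2-cell libraries and to between 193 and 262 later, although Krt18 did not rise in control embryos (3.48 and 3.85 CPM, then 3.21 and 3.39, then 4.91 and 3.61). The 7 markers of cumulus and granulosa cells summed to between 19.5 and 27.7 CPM in every library, most of it Amhr2, and Ptx3 was at 0 in 11 of 12 libraries. In these bulk libraries fewer cells with a transcript and less of it per cell cannot be told apart.

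ERV1 types together took 0.160% and 0.150% of all counts in control 2-cell libraries and 0.240% and 0.212% in MERVL-KD libraries. At the 4-cell stage the shares were 0.194% and 0.203% against 0.249% and 0.256%, and at the 8-cell stage 0.193% and 0.185% against 0.248% and 0.250%. The MERVL-KD libraries were above the control libraries at each stage, with no overlap. Shares sum to the whole library and so can move with the fall of ERVL in the same libraries. How much of the share gap came from that fall was not tested. TMM-scaled CPM also divide each library by its TMM factor. Among 2-cell libraries this factor was 0.959 (first control), 0.854 (second control), 1.18 (first MERVL-KD) and 1.14 (second MERVL-KD). On that scale the class summed to 1665 and 1761 CPM in control and 2042 and 1864 in MERVL-KD 2-cell embryos. The sums were 1895 and 1974 against 2249 and 2453 at the 4-cell stage and 2198 and 2063 against 2453 and 2654 at the 8-cell stage.

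Much of that gap lay in 4 types, set apart after their values were seen: MMERGLN-int, MMERGLN_LTR, RLTR1B-int and RLTR1B. Without them the other 99 types summed to 1366 and 1476 CPM in control and 1558 and 1430 in MERVL-KD 2-cell libraries. They summed to 1136 and 1170 against 1097 and 1246 at the 4-cell stage, and both comparisons overlapped. At the 8-cell stage the sums were 1099 and 961 against 1158 and 1147 and did not overlap. ERVK types also took a larger share in MERVL-KD embryos, 0.875% ± 0.0775 against 0.660% ± 0.0549 at the 2-cell stage (SD, n = 2), while ERVL types fell from 7.32% ± 0.182 to 0.476% ± 0.0053.

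**Figure D1:**
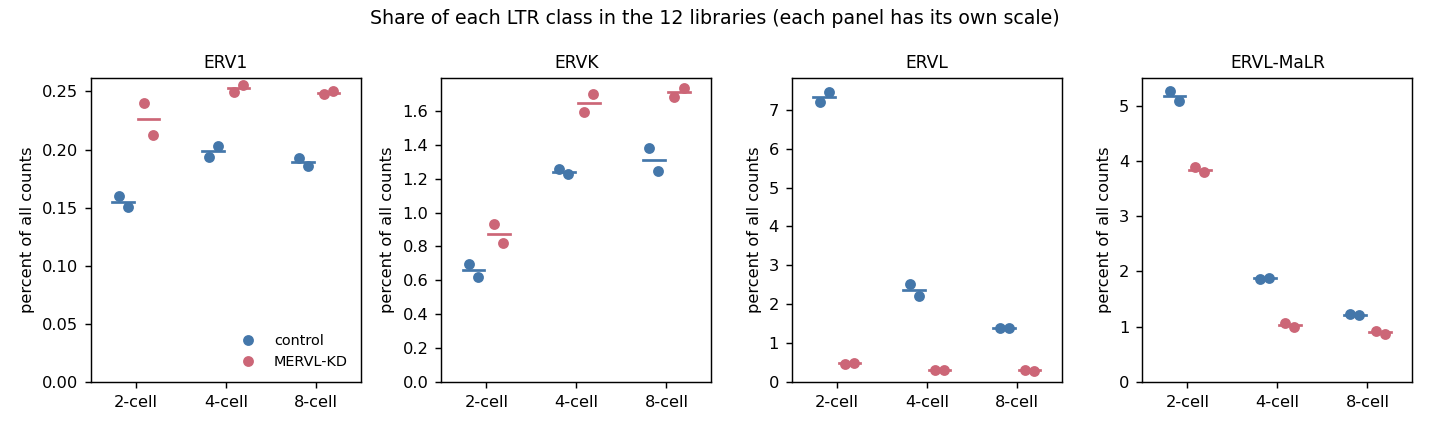
Percent of all counts in each library that fell on ERV1, ERVK, ERVL and ERVL-MaLR types (vertical axes, each from 0 and with its own scale) by stage, for control and MERVL-KD embryos. Points are libraries and lines are means of 2. ERV1 and ERVK shares were higher and ERVL and ERVL-MaLR shares lower in the MERVL-KD libraries at each stage.

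Few types carried most ERV1 reads. Over the 12 libraries together, RLTR1B-int took 27.2% of all ERV1 counts, MMERGLN-int 9.45%, MMVL30-int 8.55% and RLTR6-int 6.29%. The 12 most counted types took 71.2%, the others being RLTR1B, RMER5, RLTR4_MM-int, MuRRS4-int, RodERV21-int, MLTR14, RLTR14 and RMER2. These shares differed by stage. RLTR1B-int took 7.78% and 7.04% of ERV1 counts in control 2-cell libraries, below MMVL30-int (13.1% and 13.3%) and RLTR6-int (12.5% and 12.6%), and 39.3% and 41.4% in control 8-cell libraries. Per kilobase of mean copy length, RLTR14 at 210 CPM per kb and MMVL30-int at 180 exceeded RLTR1B-int at 103 in control 2-cell embryos, whereas RLTR1B-int was first at the later stages, at 461 and 699 in control embryos. MMERGLN-int, with long copies, stood at 35.6 to 40.9 CPM per kb in control embryos. These levels sum over copies, whose number per type was not used here, so they do not give the output of a copy. The 40 types with names shared with other mammals, old elements such as MER31 and MER34, took 0.573% of ERV1 counts, and 37 of them averaged below 1 CPM.

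At the 2-cell stage, knockdown raised 7 ERV1 types and lowered 1 at an adjusted p below 0.05. Those counts compare with 6.74% higher and 7.23% lower of all 21347 genes and repeat types tested. DESeq2 gave 4 types higher and 0 lower at the same adjusted p. Of the 103 types, 74 passed the filter on low counts. In the same libraries the 2-cell markers were lower in MERVL-KD embryos, as given above. The 5 oocyte and early embryo genes summed to 1627 to 1649 CPM in control and 999 to 1109 in MERVL-KD libraries. Most of that sum was Dppa3 and Bmp15. Of the 5 only Zp3 was higher in MERVL-KD embryos (21.0 and 24.9 CPM against 29.4 and 26.9). The part of these markers and genes in the ERV1 differences was not tested, here or later. Past the 2-fold threshold as well stood 1 type, LTRIS4, higher, against 4.26% of all rows higher and 2.22% lower. No type passed both thresholds downward in edgeR's quasi-likelihood test or in DESeq2. At an unadjusted p below 0.05, 3 types were lower, as were 2786 of all 21347 rows. Across the 74 types the median log2 fold change was 0.20, against 0.02 over all rows and 0.16 over ERVK types, and 56 of them were positive. Of all rows 51.7% were positive, and of all repeat types 65.4%.

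At the 4-cell stage 5 types rose and 0 fell at an adjusted p below 0.05, while 4.83% of all rows were higher and 5.75% lower. Past 2-fold stood 2 of the 77 tested types, both of GLN and both higher, against 2.58% of rows higher and 1.87% lower. At an unadjusted p below 0.05, 4 types were lower, as were 2588 of all 20505 rows. No type was lower past the thresholds in DESeq2. The oocyte and early embryo genes summed to 1195 to 1294 CPM in control and 944 to 1029 in MERVL-KD 4-cell libraries. Most of it was Dppa3 (1181 and 1080 against 832 and 917 CPM), and Bmp15 and Nlrp5 were lower too. Zp3 (12.7 and 13.8 against 18.6 and 17.4) and Gdf9 (29.3 and 22.8 against 33.4 and 36.2) were higher in MERVL-KD embryos. The 8-cell markers summed to 193 to 200 CPM in control and 204 to 207 in MERVL-KD 4-cell libraries. Krt18 (1.41 ± 0.28, adjusted p = 0.00725) and Cldn4 (0.57 ± 0.13, adjusted p = 0.0165) were higher in MERVL-KD embryos. Tfap2c was lower (147 and 150 against 132 and 129 CPM), and Cdx2 overlapped. The median of the class was −0.09 here, with 33 types positive, beside −0.12 for ERVK types. Positive were 51.0% of all rows and 27.2% of all repeat types.

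At the 8-cell stage 4 types rose and 0 fell at an adjusted p below 0.05, against 1.62% of all rows higher and 3.51% lower. RLTR24B_MM was the 1 type of 73 tested past 2-fold, where 0.632% of rows were higher and 1.07% lower. No type was lower at an unadjusted p below 0.05 in edgeR or past the thresholds in DESeq2. Of all 19153 rows, 2065 were lower at that unadjusted p. The oocyte and early embryo genes summed to 1505 to 1561 CPM in control and 1194 to 1317 in MERVL-KD 8-cell libraries. Most of it was Dppa3 (1410 and 1458.5 against 1097 and 1228 CPM). The 8-cell markers summed to 260 to 262 CPM against 217 to 225, most of it Tfap2c and Cldn4. Among these markers only Krt18 was higher in MERVL-KD embryos (4.91 and 3.61 CPM against 6.14 and 5.48). The median of the class was 0.18, the same as over ERVK types, and 56 types were positive, beside 51.3% of all rows and 70.9% of all repeat types.

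**Figure D2:**
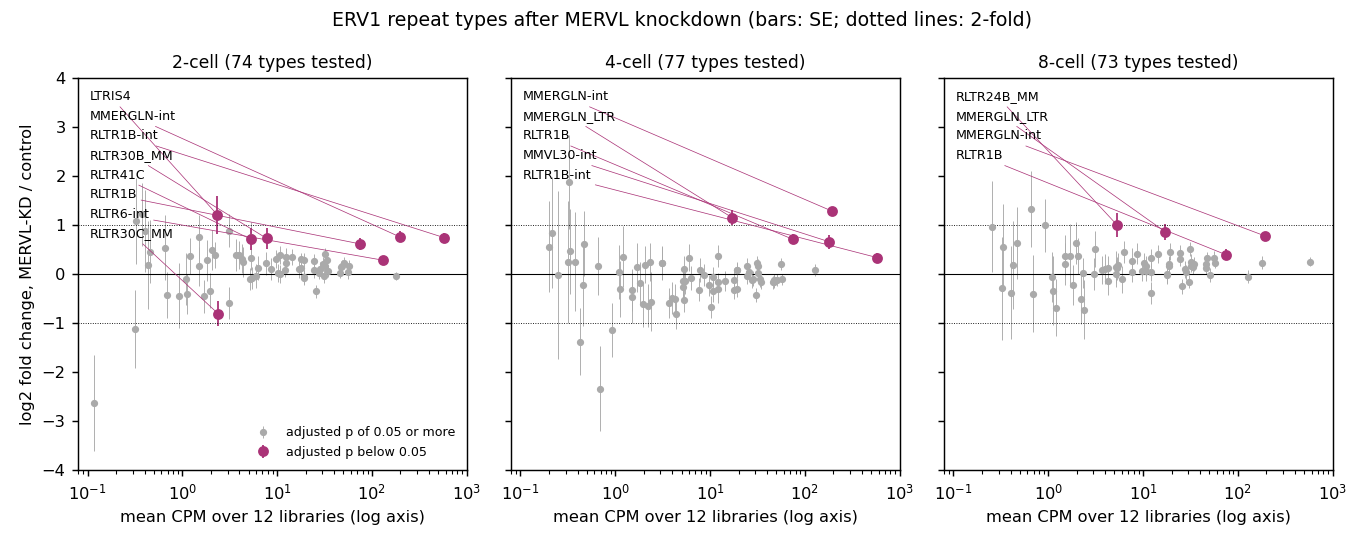
Log2 fold change of each tested ERV1 type, MERVL-KD over control (vertical axis, bars are SE), against its mean CPM over 12 libraries (horizontal log axis) at the 2-cell, 4-cell and 8-cell stages. Coloured points passed an adjusted p of 0.05. MMERGLN-int and RLTR1B passed it at all 3 stages, MMERGLN_LTR at the 4-cell and 8-cell stages, and RLTR30C_MM at the 2-cell stage was the 1 type that passed it below 0.

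The GLN types were the 2 that knockdown raised past 2-fold at the 4-cell stage. MMERGLN-int, the GLN internal region, stood at 128 and 121 CPM in control 2-cell embryos and at 226 and 178 in MERVL-KD 2-cell embryos. In 4-cell embryos it was at 131 and 138 in control and at 326 and 327 in MERVL-KD embryos. At the 8-cell stage the values were 140.4 and 146 against 237 and 251. Each MERVL-KD library was above every control library of any stage, and the control level hardly moved with stage. The log2 fold change was 0.77 ± 0.12 (SE) at the 2-cell stage (adjusted p = 0.000400), 1.29 ± 0.09 at the 4-cell stage (adjusted p = 5.47e-06) and 0.78 ± 0.09 at the 8-cell stage (adjusted p = 0.000250). In linear terms the 4-cell value is a 2.44-fold rise.

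MMERGLN_LTR, the LTR of the same element, behaved differently at the 2-cell stage. It stood at 10.98 and 11.54 CPM in control and at 12.87 and 10.12 in MERVL-KD 2-cell embryos, with overlap (log2 fold change 0.10 ± 0.19, adjusted p = 0.795). At the 4-cell stage it was at 14.2 and 12.9 against 28.7 and 31.2, and at the 8-cell stage at 12.6 and 13.5 against 23.2 and 24.1. Both later stages separated the arms without overlap, by 1.16 ± 0.16 on the log2 scale (adjusted p = 0.000814) and by 0.87 ± 0.16 (adjusted p = 0.0102). In counts, the internal region exceeded the LTR 17.5-fold and 17.6-fold in the MERVL-KD 2-cell libraries and between 9.25-fold and 11.7-fold in the other 10 libraries. That ratio was computed after the values were seen and was not tested.

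The knockdown difference of both GLN types was larger at the 4-cell than at the 2-cell stage, by 1.13 ± 0.25 on the log2 scale for MMERGLN_LTR (adjusted p = 0.0103, edgeR interaction contrast) and by 0.60 ± 0.15 for MMERGLN-int (adjusted p = 0.0303). They were the 2 ERV1 types of 82 past the threshold in that contrast, which 4.12% of all 24850 rows passed. Neither passed it with library size as the scale (0.83, adjusted p = 0.0546, and 0.30, adjusted p = 0.324), a scaling under which the median of all rows was −0.27. MMERGLN_LTR lost the call without the second MERVL-KD 2-cell library or the second MERVL-KD 4-cell library (adjusted p up to 0.0697). MMERGLN-int lost it without 5 of 8 libraries (adjusted p up to 0.194): the first control 2-cell, the second MERVL-KD 2-cell, either control 4-cell and the second MERVL-KD 4-cell library. From the 4-cell to the 8-cell stage the difference changed by −0.51 ± 0.15 for MMERGLN-int (adjusted p = 0.145), and 0 ERV1 types passed that contrast, against 0.640% of all rows. Of the 82, 7 had an unadjusted p below 0.05 there, and RLTR24B_MM came closest (1.52 ± 0.37, adjusted p = 0.0573). Among all 24850 rows, 1468 were higher and 1467 lower at that unadjusted p.

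**Figure D3:**
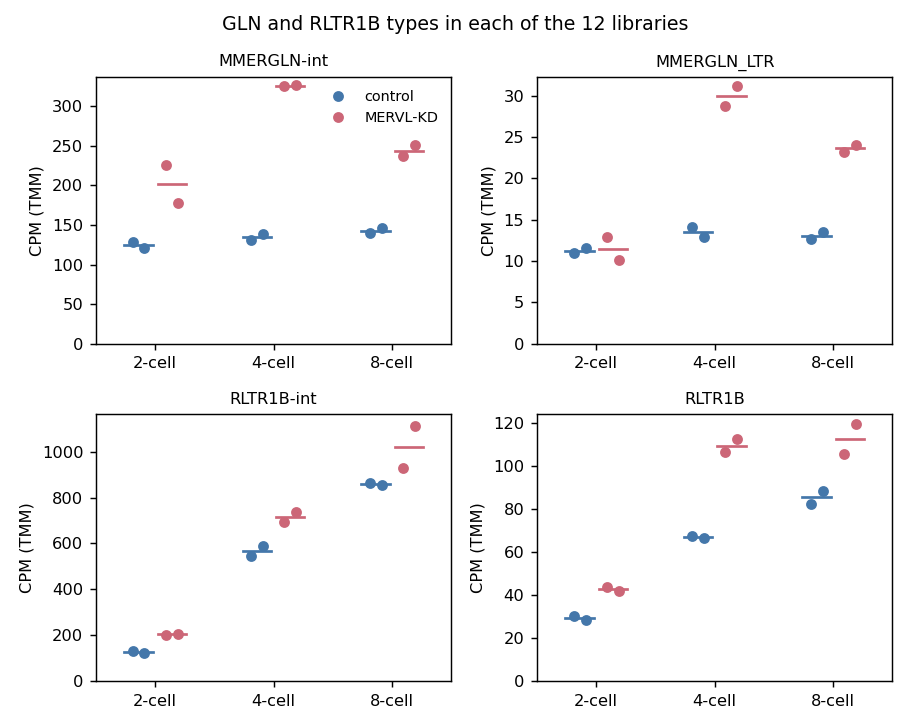
CPM (TMM-scaled, vertical axes from 0) of MMERGLN-int, MMERGLN_LTR, RLTR1B-int and RLTR1B in each library by stage, for control and MERVL-KD embryos. Points are libraries and lines are means of 2. GLN levels were flat in control embryos and peaked at the 4-cell stage in MERVL-KD embryos, whereas both RLTR1B types climbed from the 2-cell stage in both arms.

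RLTR1B-int, the internal region that pairs with the RLTR1B LTR, stood at 129.5 and 124 CPM in control 2-cell embryos and at 202 and 204 in MERVL-KD 2-cell embryos. It was at 546 and 588 against 691 and 736 at the 4-cell stage, and at 864 and 855 against 929 and 1113 at the 8-cell stage. The MERVL-KD libraries were the higher ones at every stage, with a narrowing relative gap. The log2 fold change was 0.75 ± 0.09 at the 2-cell stage (adjusted p = 4.52e-05), 0.34 ± 0.09 at the 4-cell stage (adjusted p = 0.0271) and 0.26 ± 0.09 at the 8-cell stage (adjusted p = 0.124). At the 4-cell stage it no longer passed the adjusted p without either control 4-cell library (adjusted p up to 0.232). The change of the difference from the 2-cell to the 4-cell stage, −0.33 ± 0.14, did not pass (adjusted p = 0.199).

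RLTR1B, the LTR, stood at 30.2 and 28.1 CPM against 43.8 and 41.9 at the 2-cell stage and at 67.5 and 66.3 against 106 and 112 at the 4-cell stage. In 8-cell embryos it was at 82.4 and 88.4 against 105 and 119. It rose by knockdown at all 3 stages, by 0.62 ± 0.13, 0.72 ± 0.10 and 0.40 ± 0.10 on the log2 scale (adjusted p = 0.00360, 0.00107 and 0.0454). The 8-cell difference no longer passed without either control 8-cell library or the second MERVL-KD 8-cell library (adjusted p up to 0.226). The other 6 types of the RLTR1 group did not pass the adjusted p by knockdown at any stage.

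VL30 and RLTR6 types differed among themselves. MMVL30-int, the VL30 internal region, was at 219 and 234 CPM in control and at 222 and 199 in MERVL-KD 2-cell embryos. At the 4-cell stage it was at 113 and 132 in control and at 162 and 225 in MERVL-KD embryos, and at the 8-cell stage at 169 and 128 against 187 and 160.3. Only at the 4-cell stage were the arms apart without overlap, by 0.67 ± 0.15 on the log2 scale (adjusted p = 0.0161). The knockdown difference at the 4-cell stage exceeded that at the 2-cell stage by 0.78 ± 0.22 (adjusted p = 0.0543).

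RLTR6-int, grouped with them by name, stood at 208 and 222 CPM against 263 and 237 at the 2-cell stage, a log2 fold change of 0.29 ± 0.09 (adjusted p = 0.0399). It did not pass without either control library or the first MERVL-KD library (adjusted p up to 0.313). In 4-cell embryos it was at 92.5 and 75.6 against 91.9 and 85.1, with overlap. The LTRs RLTR6_Mm, RLTR6B_Mm and RLTR6C_Mm did not pass the test at any stage, with adjusted p of 0.337 or more.

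Among low-count types, LTRIS4, an LTR of the MuRRS group (murine retrovirus-related sequences), was at 1.06 and 0.992 CPM in control and at 2.13 and 2.42 in MERVL-KD 2-cell embryos (log2 fold change 1.21 ± 0.39, adjusted p = 0.0491). The call was lost without any 1 of the 4 libraries (adjusted p 0.0904 to 0.192), and the arms overlapped at both later stages. RLTR24B_MM was at 3.40 and 3.84 CPM in control and at 6.92 and 7.50 in MERVL-KD 8-cell embryos (1.00 ± 0.25, adjusted p = 0.0398). It lost the call without either control 8-cell library or the second MERVL-KD 8-cell library (adjusted p up to 0.152). In 4-cell embryos the order of the arms was the opposite, 6.71 and 6.57 in control against 4.48 and 4.72, and did not pass the test (adjusted p = 0.238).

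Of the LTRs, 3 more passed at the 2-cell stage below 2-fold. RLTR30B_MM rose (4.79 and 5.90 CPM against 8.13 and 8.79, adjusted p = 0.0319) and so did RLTR41C (4.88 and 6.72 against 10.2 and 7.93, adjusted p = 0.0456). RLTR30C_MM fell, from 6.28 and 5.70 to 3.42 and 3.11 CPM (−0.81 ± 0.25, adjusted p = 0.0466), and did not pass in DESeq2. Each of the 3 no longer passed in 2 or 3 of the 4 leave-one-out fits, with adjusted p up to 0.196, 0.282 and 0.251.

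MuLV types and the Y-linked MuRVY types did not pass the adjusted p by knockdown at any stage. MuLV-int was at 32.3 and 37.5 CPM in control and at 27.5 and 24.1 in MERVL-KD 4-cell embryos, without overlap (−0.43 ± 0.15, adjusted p = 0.0945). RLTR4_MM-int, the other MuLV-related internal region, was at 39.3 and 44.7 against 48.4 and 48.5 (0.21 ± 0.13, adjusted p = 0.330). MURVY-LTR ranged from 15.7 to 23.2 CPM and MURVY-int from 3.97 to 8.67 over the 12 libraries. Of 4 Y-linked genes, Uty was lower in MERVL-KD 2-cell embryos (−0.71 ± 0.17, adjusted p = 0.0110) and the others did not pass. At the 8-cell stage the 2 libraries of each arm lay apart in all 4 genes. Ddx3y was at 35.3 and 22.6 CPM in control and at 40.0 and 11.7 in MERVL-KD embryos. Uty was at 4.30 and 1.90 against 7.38 and 2.46. In the MERVL-KD 8-cell libraries MURVY-LTR was at 18.75 and 19.8 CPM and MURVY-int at 5.86 and 3.97.

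**Figure D4:**
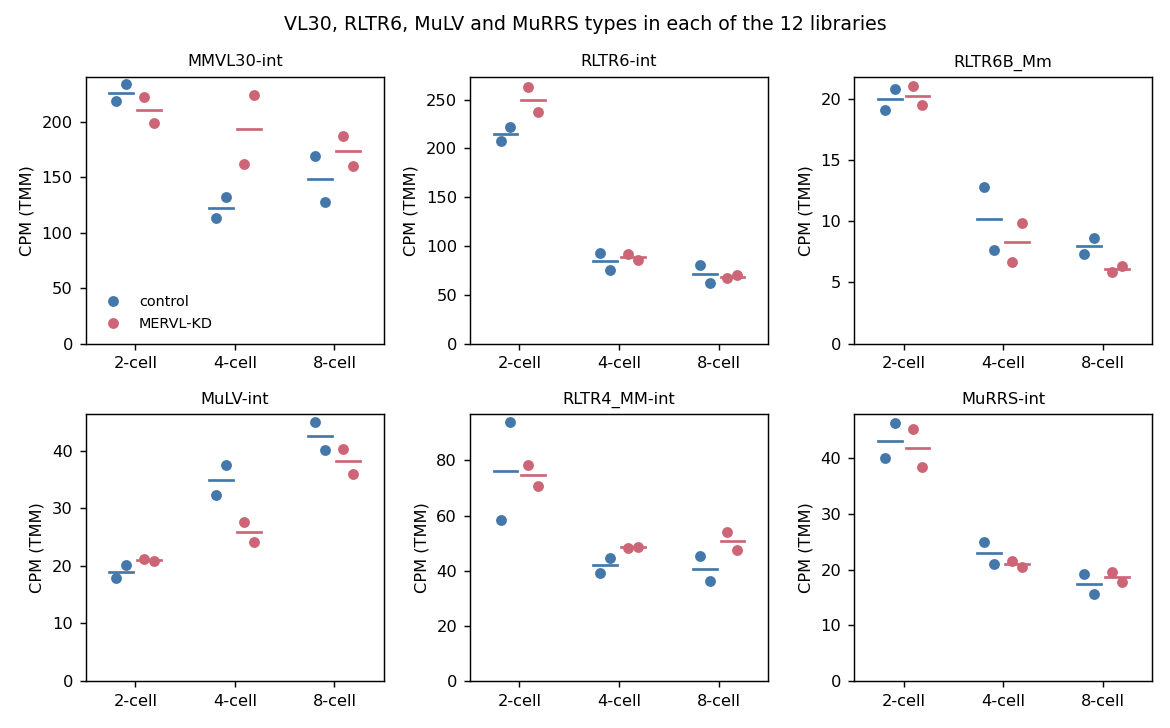
CPM (TMM-scaled, vertical axes from 0) of MMVL30-int, RLTR6-int, RLTR6B_Mm, MuLV-int, RLTR4_MM-int and MuRRS-int in each library by stage, for control and MERVL-KD embryos. Points are libraries and lines are means of 2. By mean, all but MuLV-int were highest at the 2-cell stage and MuLV-int was lowest there, and MMVL30-int in MERVL-KD embryos overlapped between the 2-cell and 4-cell stages.

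From the 2-cell to the 4-cell stage control embryos changed ERV1 types in both directions. Of 82 tested types 16 rose and 11 fell at an adjusted p below 0.05, where 26.6% of all rows rose and 28.1% fell, and 4 rose and 3 fell past 2-fold, against 20.4% and 23.7%. RLTR1B-int rose most clearly, by 2.17 ± 0.10 on the log2 scale (adjusted p = 8.51e-14), a 4.51-fold change. RLTR1B followed (1.21 ± 0.11, adjusted p = 8.30e-09), then MuLV-int, from 17.9 and 20.1 to 32.3 and 37.5 CPM (0.89 ± 0.15, adjusted p = 2.07e-05). Past 2-fold with both RLTR1B types stood RLTR5_Mm and MER31-int. RLTR5_Mm gave 1.01 ± 0.41 (adjusted p = 0.0418) and lost its call without any 1 of the 4 libraries (adjusted p up to 0.203). MER31-int held 0 and 0 counts in control 2-cell libraries and 14 and 19 at the 4-cell stage, at least 5.89-fold higher against a floor of 3 counts per library.

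The 3 clearest falls in control embryos were RLTR6-int, RLTR14 and MuRRS-int. RLTR6-int went from 208 and 222 to 92.5 and 75.6 CPM (−1.34 ± 0.13, adjusted p = 6.73e-09). RLTR14, a rodent LTR, went from 63.6 and 69.3 to 39.5 and 43.2 CPM (−0.67 ± 0.12, adjusted p = 4.28e-05), and MuRRS-int from 40.0 and 46.3 to 25.0 and 21.0 CPM (−0.90 ± 0.16, adjusted p = 5.09e-05). MMVL30-int fell in control embryos (−0.87 ± 0.15, adjusted p = 0.000123). RLTR6C_Mm (−1.43 ± 0.55, adjusted p = 0.0336) and RLTR30C_MM (−1.56 ± 0.50, adjusted p = 0.0117) were the other types past 2-fold, the first lost without any 1 library (adjusted p up to 0.175) and the second without the first 2-cell or the second 4-cell library (adjusted p up to 0.154). Of the 5 VL30 and RLTR6 types 4 fell, and RLTR6_Mm did not (−0.07 ± 0.22, adjusted p = 0.799). RLTR4_MM-int also fell (−0.84 ± 0.16, adjusted p = 0.000199), so that the count of MuLV-int over RLTR4_MM-int went from 0.307 and 0.214 to 0.823 and 0.839.

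MERVL-KD embryos changed 8 types upward and 15 downward over the same step, against 26.9% and 26.8% of all rows. Past 2-fold 4 rose and 8 fell, against 20.7% and 22.4%. RLTR1B-int (1.84 ± 0.10, adjusted p = 8.43e-13) and RLTR1B (1.38 ± 0.11, adjusted p = 8.74e-10) rose here too. MMERGLN_LTR rose in these embryos (1.41 ± 0.17, adjusted p = 4.85e-07), as did MMERGLN-int (0.72 ± 0.11, adjusted p = 7.79e-06), and their values in control embryos were 0.28 ± 0.17 (adjusted p = 0.193) and 0.12 ± 0.11 (adjusted p = 0.363). The clearest falls were those of RLTR6-int (−1.47 ± 0.13, adjusted p = 1.60e-09), RMER21A (−1.20 ± 0.17, adjusted p = 4.22e-06) and RLTR14 (−0.79 ± 0.12, adjusted p = 6.37e-06). Also past 2-fold downward were RLTR6B_Mm (−1.26), RLTR41C (−1.26), RLTR6C_Mm (−1.36), RLTR30C_MM (−1.23), MER31A (−1.69) and MER90a (−2.33), with adjusted p from 0.000106 to 0.0462. Of these RLTR6C_Mm, RLTR30C_MM and MER90a lost the call with a library left out (adjusted p up to 0.281, 0.317 and 0.125). MER31-int was again the fourth riser, with 0 and 2 counts at the 2-cell stage and 26 and 31 at the 4-cell stage. MMVL30-int stayed near its 2-cell level (−0.10 ± 0.15, adjusted p = 0.627). In both arms 14 types passed, each in the same direction. Over all rows 26.6% rose and 28.1% fell in control embryos, and how many rows passed in both arms was not counted.

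**Figure D5:**
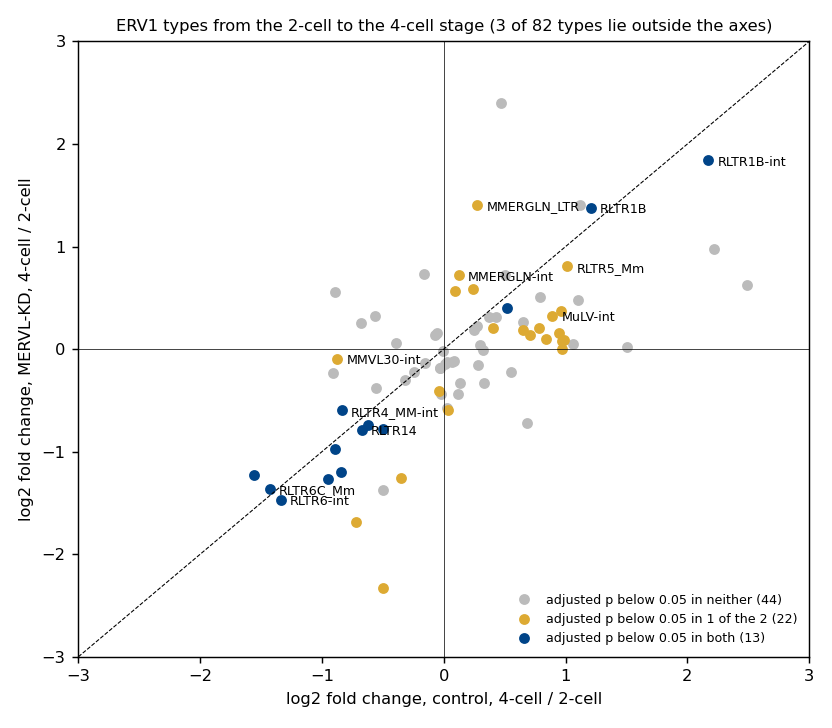
Log2 fold change from the 2-cell to the 4-cell stage in MERVL-KD embryos (vertical axis) against that in control embryos (horizontal axis) for 79 of 82 tested ERV1 types, with 3 outside the axes. Colours show whether a type passed an adjusted p of 0.05 in both arms (13 drawn), in 1 arm (22) or in neither (44), and the dashed line marks equal change. RLTR1B-int lies at the upper right, RLTR6-int at the lower left, and both GLN types above the line.

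From the 4-cell to the 8-cell stage few types moved. Past 2-fold stood 0 types in either arm in edgeR and in DESeq2, against 1.55% of all rows in control and 1.59% in MERVL-KD embryos. At an adjusted p below 0.05 alone, 1 type rose in control embryos, where 6.14% of rows passed, and 3 rose and 1 fell in MERVL-KD embryos, where 4.62% passed. At an unadjusted p below 0.05, 14 types moved in control and 7 in MERVL-KD embryos. Of all 24850 rows, 2342 rose and 2580 fell at that p in control embryos. In MERVL-KD embryos 2073 rows rose and 2428 fell. RLTR1B-int rose in both, by 0.60 ± 0.10 in control (adjusted p = 0.00109) and by 0.51 ± 0.10 in MERVL-KD embryos (adjusted p = 0.00376).

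In MERVL-KD embryos MuLV-int rose as well (0.56 ± 0.14, adjusted p = 0.0287), as did LTRIS4A (0.76 ± 0.21, adjusted p = 0.0396), while MMERGLN-int fell (−0.42 ± 0.11, adjusted p = 0.0282). MMERGLN-int and LTRIS4A no longer passed without any 1 of the 4 libraries (adjusted p up to 0.139 and 0.151), nor MuLV-int without the second 4-cell or the first 8-cell library (adjusted p up to 0.155). The next types in control embryos did not pass: RLTR1B (0.35, adjusted p = 0.0667) and MuLV-int (0.28, adjusted p = 0.285) upward, and RLTR24B_MM (−0.88, adjusted p = 0.0502), MLTR14 (−0.44, adjusted p = 0.0542) and RMER2 (−0.39, adjusted p = 0.0993) downward.

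Genes of provirus silencing, entry receptors of gammaretroviruses and restriction factors were measured in the same libraries. Of 10 genes of provirus silencing 0 passed 2-fold by knockdown. At an adjusted p below 0.05, 0 rose and 2 fell at the 2-cell stage, 2 rose and 2 fell at the 4-cell stage, and 1 rose and 2 fell at the 8-cell stage. Over all rows 6.74% rose and 7.23% fell at the 2-cell stage, with 4.83% and 5.75% in 4-cell embryos and 1.62% and 3.51% in 8-cell embryos. The same shares apply to the receptors and restriction factors. Hdac1, a histone deacetylase, fell at all 3 stages, from 339 and 328 to 215 and 207 CPM at the 4-cell stage (−0.66 ± 0.09, adjusted p = 0.000722). Trim28, the corepressor, was lower at the 8-cell stage, at 639 and 629 against 424 and 423 CPM (−0.57 ± 0.07, adjusted p = 0.000980), and at the 4-cell stage (−0.33 ± 0.09, adjusted p = 0.0392).

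Zfp809, the zinc-finger gene whose protein binds the MuLV primer-binding site, rose in MERVL-KD 4-cell embryos, from 62.1 and 56.3 to 99.0 and 107 CPM (0.81 ± 0.11, adjusted p = 0.000805), and at the 8-cell stage (0.55 ± 0.12, adjusted p = 0.0200). Setdb1, the histone methyltransferase, was lower at the 2-cell stage (−0.36 ± 0.10, adjusted p = 0.0245), and Atf7ip, its partner, rose at the 4-cell stage (0.39 ± 0.11, adjusted p = 0.0435). Whether these genes bear on the ERV1 levels was not tested. Among 3 restriction factors, Fv1, itself derived from an endogenous retroviral gag gene, fell at the 2-cell stage, from 6.97 and 8.14 to 2.03 and 2.36 CPM (−1.71 ± 0.25, adjusted p = 0.000284), and Apobec3, a cytidine deaminase, fell at the 4-cell stage (−0.76 ± 0.21, adjusted p = 0.0381). Of 4 entry receptors 2 fell at the 2-cell stage (Slc20a1 and Xpr1), 1 rose and 1 fell (Xpr1) at the 4-cell stage, and 1 fell (Slc20a1) at the 8-cell stage. Slc20a2, a phosphate transporter, rose past 2-fold at the 4-cell stage, from 2.68 and 1.94 to 5.19 and 6.46 CPM (1.34 ± 0.32, adjusted p = 0.0210).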

How the data were processed

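Total RNA of 30 embryos per library was made into SMART-Seq stranded libraries by the authors, aligned to GRCm38 with STAR 2.5.3a keeping unique alignments, and counted with featureCounts on GENCODE genes and RepeatMasker types. The deposited values are raw counts. Unique alignment undercounts near-identical young copies, and reads of one copy cannot be assigned here because each type is 1 row. Among ERV1 values of 1 to 50 counts, 218 of 348 were even, and how mates of a pair were counted is not given in the sources used here, so fragments may be fewer than counts. Floors cover counting error only, whereas each SE also takes in the spread between replicate libraries.

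ERV1 rows were taken by name prefix. edgeR 4.0.16 (R 4.3.3; filterByExpr, TMM, robust quasi-likelihood test) compared MERVL-KD with control within each stage, and 1 fit of 12 libraries gave stage and interaction contrasts. P-values were adjusted by Benjamini-Hochberg over all tested rows. A call needs an adjusted p below 0.05 and at least 2-fold, and interactions the adjusted p alone. SE is the log2 fold change over the root of F. Printed CPM use TMM over 12 libraries. The members, subfamilies and gene lists were chosen with earlier results of these data known. Named types are those called, those past the adjusted p by knockdown, the 12 most counted, the subfamily members, and the 3 smallest adjusted p in each direction of each stage contrast. MERV1 names, which begin with MER, were kept with rodent types. Alternatives were DESeq2 1.42.0, its size factors, library size, filters of 1 and 10 counts, a replicate block, other sets of libraries, no fold threshold and each library left out. Halved counts were added after seeing the data. The methods were tested on simulated data. With 2 libraries per group of pooled embryos, p-values rest on a small spread. ATAC-seq libraries were not used here.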

Additional observations from a re-analysis of the deposited data

Results flagged for a closer look

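The knockdown effect on both GLN types differed between stages in an interaction contrast. For MMERGLN_LTR it was 1.13 larger on the log2 scale at the 4-cell than at the 2-cell stage (adjusted p = 0.0103, edgeR), and both MERVL-KD 4-cell libraries were above both control libraries while the 2-cell libraries overlapped. For MMERGLN-int it was 0.60 larger (adjusted p = 0.0303), with the MERVL-KD libraries above the control libraries at both stages. With library size as the scale neither type passed the contrast (edgeR, adjusted p = 0.0546 for MMERGLN_LTR and 0.324 for MMERGLN-int). Both also lost the call in some fits with a library left out, as given above. Groups of 2 libraries are too small for a search for single libraries far from the others.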

How the results depend on the processing

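Of 74 fold changes or differences of ERV1 types with an adjusted p below 0.05, named above or not, 0 changed sign under any alternative. In MERVL-KD against control, 2-cell embryos gave 1 call, and 0 with DESeq2 size factors, with DESeq2, with the replicate block or with all 12 libraries in 1 fit, 7 with library size, and 8 without the fold threshold, and 1 was MER52-int lower, in place of LTRIS4, with a filter of 1 count in any library. The 4-cell comparison gave 2 calls, and 5 without the fold threshold. The 8-cell comparison gave 1, and 0 with DESeq2 size factors or in 1 fit of 12 libraries, where RLTR24B_MM fell just under 2-fold, and 4 without the fold threshold. With a library left out, 2-cell calls ranged from 0 to 2, 4-cell calls from 2 to 3 and 8-cell calls from 0 to 1. For control embryos from the 2-cell to the 4-cell stage the 7 calls became 15 with library size, 13 with only the 4 libraries of the groups and 27 without the fold threshold, and ranged from 5 to 10 with a library left out. The 12 calls in MERVL-KD embryos became 23 without the fold threshold and ranged from 10 to 12. From the 4-cell to the 8-cell stage the 0 calls became 2 in control embryos with library size, and 1 in control and 4 in MERVL-KD embryos without the fold threshold, and stayed at 0 with a library left out. The 2 interaction calls of the 4-cell against the 2-cell stage ranged from 0 to 3 with a library left out. Library size also gave 2, but other types and lower: RLTR1B-int (−0.63, adjusted p = 0.00465) and MuLV-int (−0.87, adjusted p = 0.0188). The 8-cell against 4-cell interaction gave 0, 1 with halved counts, and 0 with a library left out.

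Library size moved the median of all rows to 0.31, 0.08 and 0.14 at the 2-cell, 4-cell and 8-cell stages. Relative to it MMERGLN-int differed by 0.74, 1.27 and 0.76 and RLTR1B by 0.60, 0.70 and 0.39. The replicate block is no true pairing, since deviations of same-numbered libraries correlated at −0.009, −0.002 and 0.004 over 24850 rows. It took the 2-cell count of calls from 1 to 0 (LTRIS4, adjusted p = 0.0654), took RLTR6-int, RLTR30C_MM and RLTR41C there past an adjusted p of 0.05 (0.0654, 0.0633 and 0.0570), and left the 4-cell and 8-cell counts at 2 and 1. From the 2-cell to the 4-cell stage in MERVL-KD embryos it took the 12 calls to 11 (RLTR30C_MM, adjusted p = 0.0597). Depth limits the 39 types that average below 1 CPM, and 26 to 30 of the 103 types were not tested by knockdown at a stage.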
